A study of Mus musculus with 5 samples.

Results

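Of 34714 listed transcription start sites, 2061 (5.94%) held no entry in the library taken before induction of neural differentiation and at least 1 entry in each of the 4 libraries taken 0.5, 1, 1.5 and 2 h after it. Merged at a distance of 500 bp they formed 946 regions, and they carried the symbols of 929 of the 8034 genes in the table (11.6%). They were selected on the values of all 5 libraries, so their absence at 0 h and their presence later are the selection itself and no finding. Most lay beside chromatin that was already covered at 0 h, mainly on the gene body side of it. Listed sites in general lie mostly inside genes, and that side was not compared with other sites. Those that fell in an annotated promoter window were mostly in windows of very high GC content. A smaller group of 162 regions, at genes such as Slc4a7, Vav3, Gnai1 and the region shared by Atp5j and Gabpa, had no 0 h-covered site within 2000 bp.

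In ATAC-seq a transposase inserts sequencing adapters into open DNA, and stretches with many insertions are called as peaks. It was run on nuclei of C17.2, an established mouse neural stem cell line of CD1 x C57BL/6 strain. Libraries taken 0.5, 1, 1.5 and 2 h after the cells were moved to Knockout DMEM with GlutaMAX and N2 supplement were set against the control library at 0 h, grown in DMEM/F12 with fetal bovine serum and Antibiotic-Antimycotic, with 1 library per time. All groups are this 1 cell line, with no differentiated end point and no mock change of medium, so time after induction, the change of medium and the preparation of each library cannot be told apart.

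Each value is a whole number from 0 to 10, taken here to be how many entries of the library's deposited BED file overlap the site (1 or more is called covered). It is not a read count, the read depth behind it is unknown, and a 0 says that no entry covered the site, not that the chromatin was closed. With 1 library per time no difference between times could be tested. Wilson intervals given below cover counting error over sites only, and neighbouring sites share their values, so they are too narrow.

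Promoters of broadly expressed genes are mostly CpG islands, stretches rich in G, C and the CG dinucleotide that are open and unmethylated in many cell types. Their open core covers the start of transcription, and the well-placed first nucleosomes of the gene follow downstream. Neural progenitors that start to differentiate leave the cell cycle and exchange a repressed for an active neuronal gene programme over days.

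Promoters that carry these sites are printed to show where in a promoter they lie and how GC-rich it is. Each is a RefSeq window of build GRCm38.p6, 5′ to 3′ along the gene, with capitals on the bases of sites uncovered at 0 h and covered at every later time. The windows were chosen after their values were seen. The first 4 held no site covered at 0 h. They were the promoters of Nek6 (chr2:38511626-38511925, plus strand), of Atp5j, which also holds a site named for the neighbouring gene Gabpa (chr16:84835576-84835875, minus strand), of Gnai1 (chr5:18360364-18360663, minus strand) and of Marchf7 (chr2:60209686-60209985, plus strand). The promoters of Raph1 (chr1:60566716-60567015, minus strand) and Tob1 (chr11:94211204-94211503, plus strand) each held both kinds of site.

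Nek6: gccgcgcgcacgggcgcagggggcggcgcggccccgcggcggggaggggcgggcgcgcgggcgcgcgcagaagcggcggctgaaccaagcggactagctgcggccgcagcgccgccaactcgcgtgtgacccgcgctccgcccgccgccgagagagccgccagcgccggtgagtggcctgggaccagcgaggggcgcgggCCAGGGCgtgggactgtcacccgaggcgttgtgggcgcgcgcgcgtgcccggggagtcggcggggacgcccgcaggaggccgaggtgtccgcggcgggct

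Atp5j and Gabpa: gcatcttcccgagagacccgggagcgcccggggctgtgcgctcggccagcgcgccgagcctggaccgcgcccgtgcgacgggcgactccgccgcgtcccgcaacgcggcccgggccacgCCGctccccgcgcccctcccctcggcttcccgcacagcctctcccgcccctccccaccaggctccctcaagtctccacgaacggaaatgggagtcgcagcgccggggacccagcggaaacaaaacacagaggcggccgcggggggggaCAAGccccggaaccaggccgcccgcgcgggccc

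Gnai1: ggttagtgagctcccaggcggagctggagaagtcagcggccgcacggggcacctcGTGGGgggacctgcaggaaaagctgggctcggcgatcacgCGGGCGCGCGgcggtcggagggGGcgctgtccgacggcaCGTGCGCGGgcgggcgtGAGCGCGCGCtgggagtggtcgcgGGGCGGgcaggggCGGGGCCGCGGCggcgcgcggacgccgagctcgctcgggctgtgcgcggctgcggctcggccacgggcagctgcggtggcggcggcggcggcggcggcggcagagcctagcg

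Marchf7: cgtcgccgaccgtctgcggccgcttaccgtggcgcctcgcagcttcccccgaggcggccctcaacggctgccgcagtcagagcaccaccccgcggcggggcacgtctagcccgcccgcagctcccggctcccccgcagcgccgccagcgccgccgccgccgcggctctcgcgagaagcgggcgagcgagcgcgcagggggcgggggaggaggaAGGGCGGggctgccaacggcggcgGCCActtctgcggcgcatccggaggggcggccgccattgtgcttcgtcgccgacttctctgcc

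Raph1: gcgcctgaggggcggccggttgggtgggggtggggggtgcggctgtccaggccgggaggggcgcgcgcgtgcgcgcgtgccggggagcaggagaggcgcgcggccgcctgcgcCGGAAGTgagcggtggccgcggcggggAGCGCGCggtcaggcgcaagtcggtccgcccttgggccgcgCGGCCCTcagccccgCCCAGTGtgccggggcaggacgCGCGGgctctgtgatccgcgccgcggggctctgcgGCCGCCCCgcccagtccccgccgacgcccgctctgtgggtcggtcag

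Tob1: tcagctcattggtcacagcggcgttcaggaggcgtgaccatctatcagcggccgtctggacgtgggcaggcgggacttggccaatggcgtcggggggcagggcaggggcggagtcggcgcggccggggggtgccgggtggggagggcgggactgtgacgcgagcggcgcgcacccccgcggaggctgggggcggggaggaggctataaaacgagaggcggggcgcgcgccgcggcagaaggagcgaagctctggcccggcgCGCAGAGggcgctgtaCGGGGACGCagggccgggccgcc

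The window of Nek6, a mitotic kinase, held 1 such site, which ends at base 207 of the window, with 5 entries at each of the 4 later times, 27966 bp inside the gene from its outermost annotated 5′ end. That window had 82.0% GC and 56 CG dinucleotides. In the window of Atp5j, a subunit of the mitochondrial ATP synthase, the site at bases 120 to 122 carries the symbol of Gabpa, an ETS family transcription factor, and that at bases 268 to 271 the symbol of Atp5j. Both held 5, 4, 5 and 5 entries at 0.5, 1, 1.5 and 2 h. The 7 sites in the Gnai1 window, spread over its bases 56 to 200, all held 5, 2, 2 and 5 entries. Gnai1, an inhibitory G protein subunit, thus had its highest values in the first and last of the later libraries.

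In the Raph1 window, the 7 sites between bases 114 and 261 held 7, 7, 5 and 4 entries at the later times and 0 at 0 h. A site at bases 72 to 75, nearer to the upstream end of the same window, held the same 7, 7, 5 and 4 entries and 1 at 0 h. Raph1 encodes lamellipodin, a regulator of actin at the cell's leading edge. The window of Tob1, an anti-proliferative adaptor, had the same order: 2 sites at bases 262 to 286 were uncovered at 0 h, and the 3 sites before them, between bases 71 and 240, held 3 entries at 0 h. All 5 of these Tob1 sites held 4, 4, 6 and 6 entries at the later times. Below, values at 4 later times are given in the order 0.5, 1, 1.5 and 2 h. Distances inside or upstream of a gene are from its outermost annotated 5′ end, as for Nek6, not from the nearest start.

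Sites missing in 1 library alone were far more often missing at 0 h than at any other time. The 0.5 h library alone missed 64, that of 1 h 676, that of 1.5 h 11 and that of 2 h 75, against 2061 for the 0 h library. The 0 h library also covered the smallest share of all listed sites. From 0 to 2 h that share was 47.6%, 58.7%, 51.2%, 66.9% and 65.7%, and the 2 libraries with the lowest coverage were also the 2 with the most sites missing in them alone. The part of a library's overall yield in these counts was not tested.

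**Figure D1:**
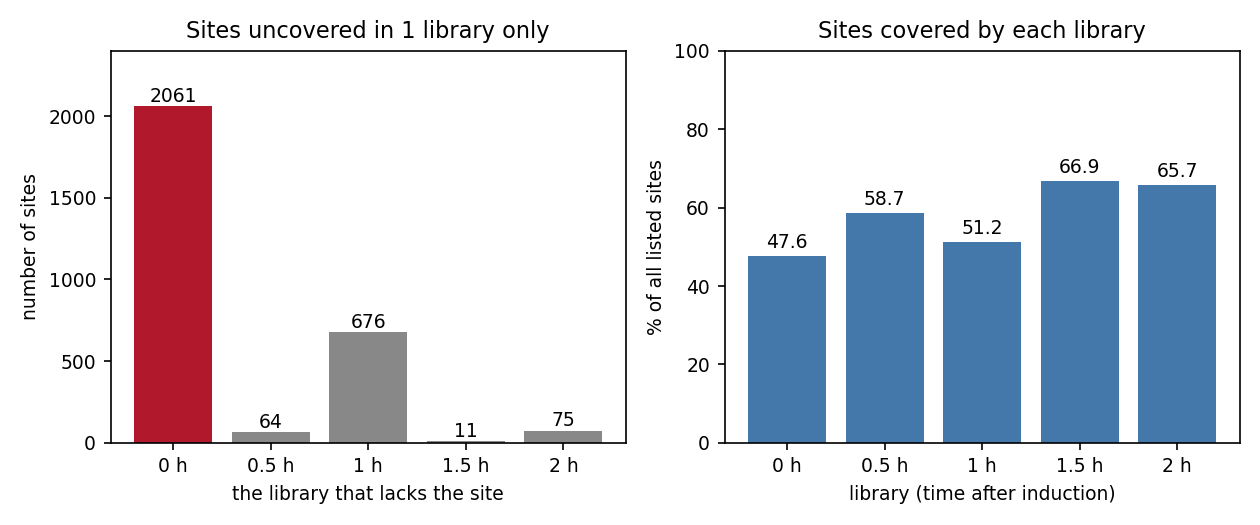
Left, number of sites (y axis) covered in 4 libraries and uncovered in the 1 named on the x axis. Right, percentage of all 34714 sites (y axis) covered by each library. The left bar at 0 h stands at 2061, against 676 at 1 h, and the same library has the lowest bar on the right, 47.6%.

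Among all sites uncovered at 0 h, the 2061 made up 49.3% of those covered in the 0.5 h library, 89.3% in the 1 h library, 30.1% in the 1.5 h library and 31.4% in the 2 h library. Sites newly covered against 0 h were 12%, 6.65%, 19.7% and 18.9% of all sites in the same 4 libraries, which is the background for those shares and part of the rule. Nearly every site gained by 1 h was thus also covered at the 3 other later times. Just inside the rule, 774 sites had 1 entry as their lowest later value, and 54 had 1 entry at every later time. Just outside it, 2645 sites had 1 entry at 0 h and were covered throughout, 157 were also missed by the 0.5 h library, 1750 by that of 1 h, 10 by that of 1.5 h and 31 by that of 2 h.

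A 0 h-covered site lay close by for most of the 2061. It was within 200 bp for 56.9%, within 500 bp for 77.3% (Wilson 95% interval 75.5 to 79.1%) and within 2000 bp for 83.2%, with a median distance of 158 bp. Within 500 bp the share was 68.6% for the 1750 sites uncovered at 0 h and 1 h, 62.3% for the 1966 covered at 1.5 h and 2 h only, and 17.9% for the 10621 covered in no library. The Wilson intervals of these shares do not overlap that of the 0 h-missing sites. They are too narrow, as neighbouring sites share values, and no difference between the patterns was tested. Sites missing in the 1 h, 0.5 h or 2 h library alone had a neighbour covered in that library less often, at 53.7%, 56.2% and 48.0% in this order. For the 1.5 h library it was 63.6% of 11 sites, with an interval of 35.4 to 84.8% that spans the share of the 0 h-missing sites.

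**Figure D2:**
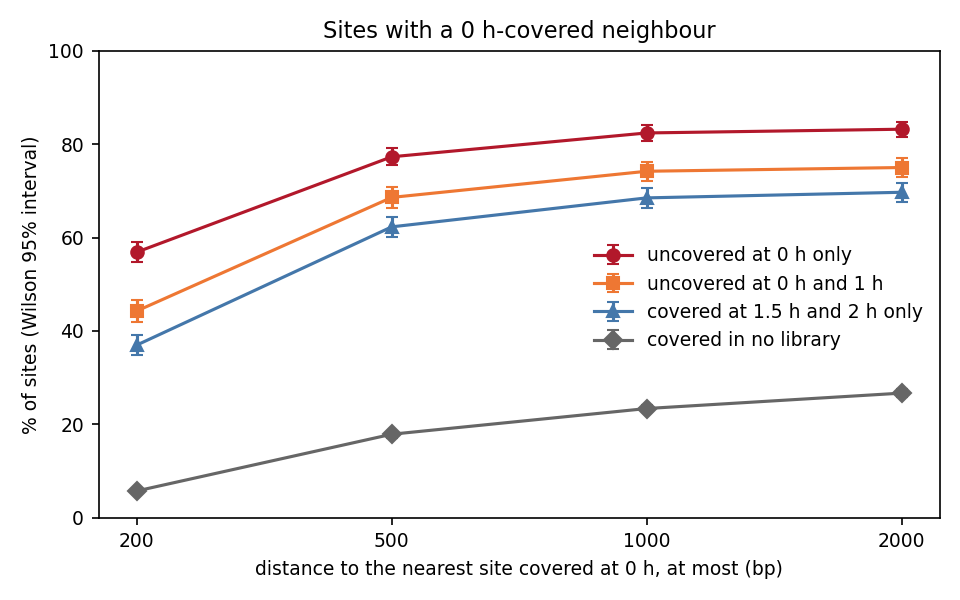
Percentage of sites (y axis, Wilson 95% interval) with a site covered at 0 h within 200, 500, 1000 and 2000 bp (x axis). The 2061 sites uncovered at 0 h only form the top line, at 77.3% within 500 bp, and sites covered in no library the bottom line, at 17.9%.

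By this distance the 946 regions fell into 742 edge regions with a 0 h-covered site within 500 bp (1640 sites), 162 separate regions with none within 2000 bp (346 sites), and 42 between these limits (75 sites). A region was small: 463 held a single site, and the largest, at the neighbouring genes Atg4b and Thap4, held 12. Of the 483 regions with 2 or more sites, 451 had the same set of later values at all of them. Sites of 1 region are therefore not independent measurements.

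At edge regions the later values of a missing site were mostly those of its covered neighbour. Of 1594 sites with a 0 h-covered neighbour within 500 bp, 1430 (89.7%) held exactly the neighbour's entries in all 4 later libraries. Taken singly, the 4 libraries gave equal values for 95.9%, 91.5%, 98.6% and 98.9%, in order of time. Pairs of sites covered in all 5 libraries were equal in the 4 later ones in 99.5% of 12937 cases. Missing sites thus differed from their neighbour more often than such pairs did, and most often at 1 h. This comparison is not like for like. Both sites of such a pair had to be covered in all 5 libraries, while 1538 of the 1594 neighbours (96.5%) were. A missing site also differs from its neighbour at 0 h by the rule, and distances within pairs were not matched. The neighbour itself was mostly weakly covered at 0 h: 523 held 1 entry, 797 held 2, 226 held 3, 42 held 4, 5 held 5 and 1 held 6. It had fewer entries at 0 h than at 1.5 h in 71.2% of cases and than at 1 h in 43.6%.

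The missing sites lay mostly on the side of the gene. Along the gene's direction, 1177 of 1590 named edge sites (74.0%) were downstream of their 0 h-covered neighbour. No such share was taken for other sites. Of all listed sites with a distance only 16.1% were upstream of the 5′ end, so this side is not shown to be particular to the missing sites. Of the 742 edge regions, 560 had 0 h cover on 1 side only, and in 450 of those with a gene name (80.8%) the missing stretch pointed into the gene, against 107 (19.2%) that pointed upstream. In 181 regions (24.4%) 0 h cover stood on both sides, so that the missing sites formed a gap. Of the 560, 306 (54.6%) had no listed site within 500 bp beyond them. In the other 254, that site was also uncovered at 1 h in 103 (40.6%), covered at 1.5 h and 2 h only in 79 (31.1%), and uncovered in every library in 32 (12.6%). By construction this site beyond could be neither covered at 0 h nor missing at 0 h only.

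Rest, the repressor of neuronal genes in non-neuronal cells and progenitors, showed such gaps. Its 4 missing sites lay 158, 552, 722 and 821 bp inside the gene (chr5:77265649-77266318), each with 6, 5, 6 and 6 entries. The 11 sites before them, from 123 bp upstream to 138 bp inside, held 2 entries at 0 h and the same 6, 5, 6 and 6 later. The outermost site, 166 bp upstream, held 2 at 0 h and 6, 5, 6 and 0 later. Sites at 406 and 458 bp held 1 entry at 0 h, and a site at 898 bp held 2. At 0 h the cover of Rest was thus broken at 2 places that were covered at every later time.

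Mapk8, the stress kinase JNK1, held 10 missing sites between 404 and 714 bp inside the gene, each with 1, 3, 3 and 3 entries. The 10 sites nearer its 5′ end, at 118 to 351 bp, had 1 entry at 0 h and again 1, 3, 3 and 3 later. Between the missing sites stood 3 others, at 557 to 595 bp, that lacked the 0.5 h entry too. Slc4a7, a sodium bicarbonate cotransporter, stands for the separate regions: its 9 listed sites, 156 to 392 bp inside the gene, were all uncovered at 0 h and held 4, 4, 4 and 3 entries, and the nearest 0 h-covered site was 357427 bp away.

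**Figure D3:**
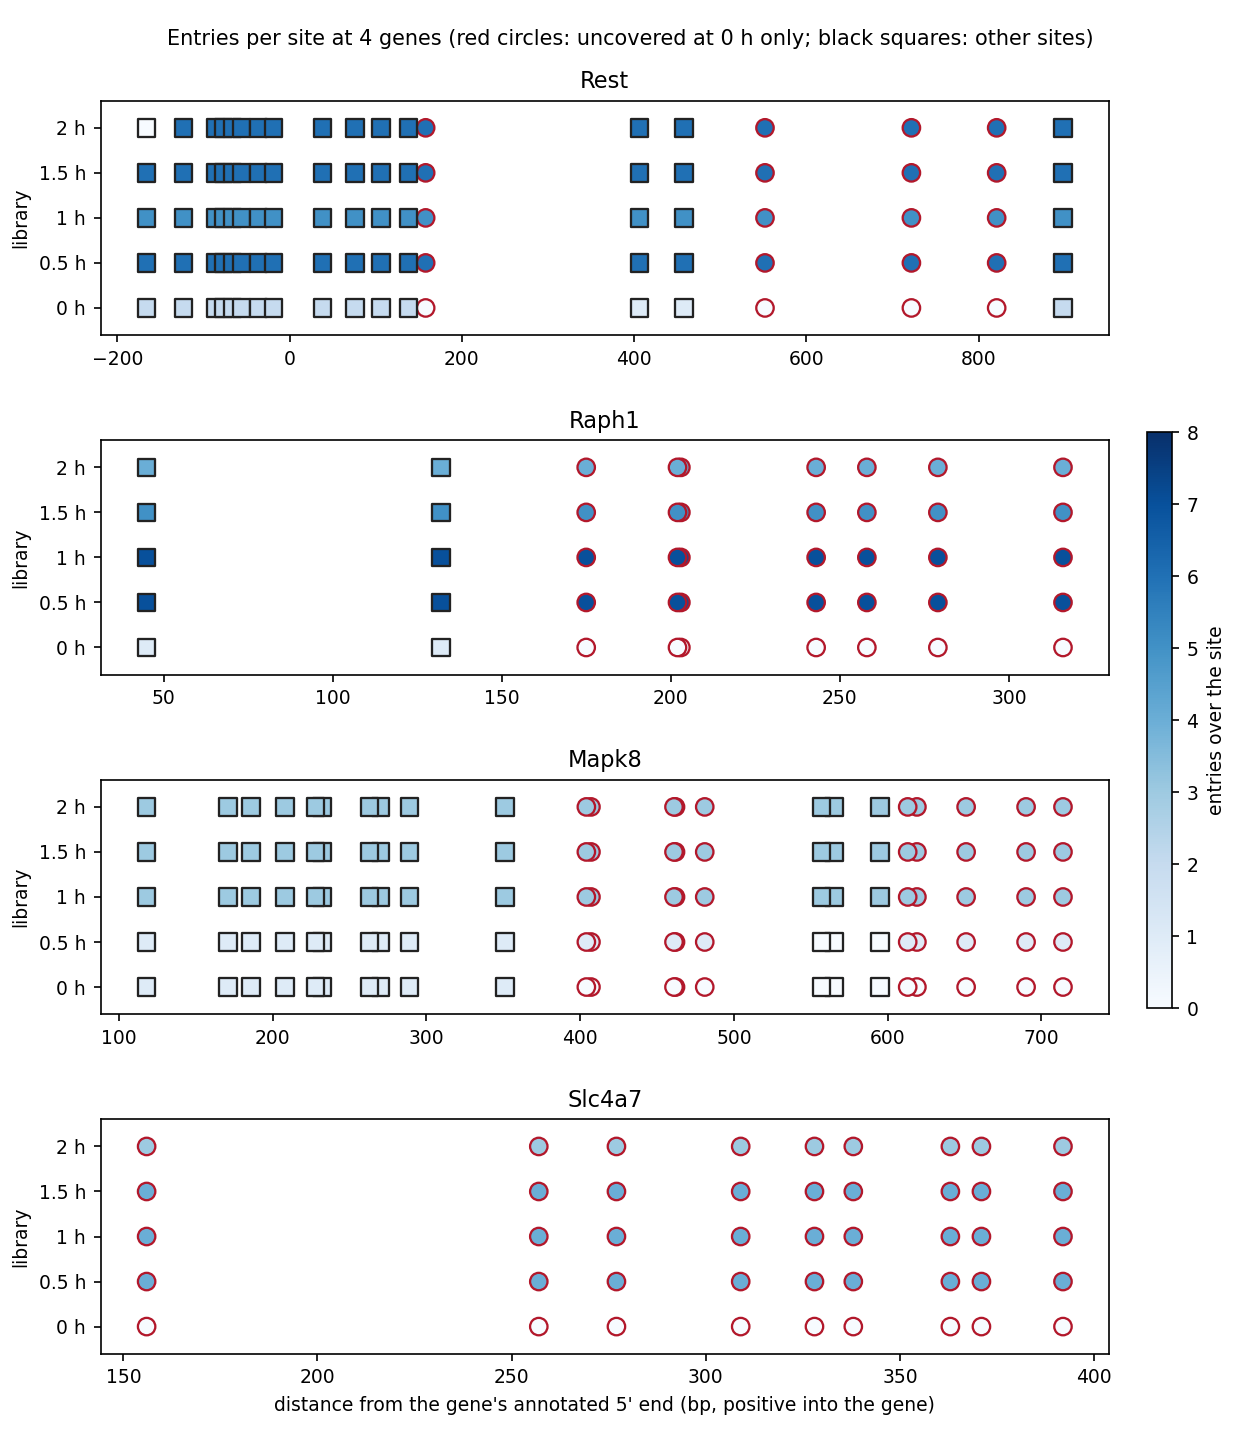
Entries per site (shade, 0 to 8) in each library (y axis, 0 h at the bottom) against distance from the annotated 5′ end (x axis, bp) for Rest, Raph1, Mapk8 and Slc4a7. Red circles are sites uncovered at 0 h only and black squares are other sites. At Raph1 the 0 h row is filled at 45 and 132 bp and empty from 175 bp on, while at Slc4a7 it is empty throughout.

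The entry numbers of the missing sites are given as a description, since the rule asked for 1 or more at each later time. Their mean was 2.77, 2.32, 3.03 and 2.80 entries at the 4 later times, with an SD over sites of 1.30, 1.18, 1.21 and 1.16 (n = 2061 sites). The 15287 sites covered in all 5 libraries had means of 2.87, 2.60, 2.84 and 2.62. The means of the missing sites were the lower ones at 0.5 h and 1 h and the higher ones at 1.5 h and 2 h. Separate sites were lower, with means of 2.50, 1.97, 2.72 and 2.63 entries, than edge sites, with 2.83, 2.40, 3.09 and 2.84.

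Values of 2 or more were held by 83.4%, 72.1%, 91.9% and 88.4% of the missing sites, and 1287 (62.4%) held at least 2 at every later time. Among sites covered in all 5 libraries the shares were 89.7%, 84.5%, 90.5% and 86.5%, and 74.2% at every later time. Of sites with 1 entry at 0 h and covered later, 32.7% held at least 2 at every later time. The 1 h library alone had the lowest value at 482 sites (23.4%), and the 1.5 h library alone the highest at 350 (17.0%). In sites covered in all 5 libraries, those shares were 12.9% and 11.8%. At 259 missing sites (12.6%) the 4 values were equal, against 20.5% of sites covered in all 5 and 23.7% of those with 1 entry at 0 h.

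Between 0.5 h and 1 h, 206 missing sites (10.0%) were at least 2-fold lower at 1 h on log2(entries + 1) and 42 (2.04%) at least 2-fold higher, against 11% and 1.32% of all sites. Between 1 h and 1.5 h, 299 (14.5%) were at least 2-fold higher at 1.5 h and 4 (0.194%) lower, against 19.8% and 0.763% of all sites. From 1.5 h to 2 h, 19 (0.922%) were higher and 72 (3.49%) lower, against 2.51% and 5.38%. As all sites include those at 0 in 1 of the libraries, and the rule admits none here, the shares are not like for like. Of sites covered in all 5 libraries, 4.76% were lower at 1 h than at 0.5 h and 6.4% higher at 1.5 h than at 1 h. Of the 2645 with 1 entry at 0 h, the nearest in kind, 8.81% and 14.4% were, close to the shares of the missing sites.

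The strongest later values were mostly at edge regions, which are also most of all regions. Flii, an actin-binding co-regulator of transcription, held 8, 7, 8 and 6 entries 285 bp inside it (chr11:60726977-60726980), and the site 263 bp away held 6 at 0 h. Limd1, a LIM domain inhibitor of the Hippo kinases Lats1 and Lats2, held 6, 7, 7 and 7 at a site 23 bp upstream of its 5′ end, and the site 65 bp away held 5 at 0 h. Pard3, a cell polarity scaffold, held 7, 6, 6 and 6 at 2 sites, and the site 236 bp away held 3 at 0 h. Further regions, at Kansl1l (7, 7, 8 and 5), Mllt10 (7, 7, 5 and 5), Sgsm2 (6, 4, 6 and 7) and Fjx1 (5, 5, 6 and 5), were also within 200 bp of 0 h cover. Zfp131, a zinc finger protein, held 5 at each later time. Nek6, 131884 bp from a 0 h-covered site, was separate. A lowest later value of 4 or more was found in 60 regions, of which 53 were edge regions and 5 separate. Over all 946 regions 78.4% were edge and 17.1% separate, so most of this split is that background.

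The values of a few regions differed widely among the later libraries. Fasn, the fatty acid synthase, held 8, 1, 3 and 3 entries 1270 bp inside it, and its neighbours held 8, 4, 3 and 3 with 3 at 0 h. Pdzd8, which tethers the endoplasmic reticulum to other organelles, held 7, 1, 4 and 3. Rictor, the defining subunit of mTOR complex 2, held 2, 1, 5 and 7 at 3 sites upstream of its 5′ end, the farthest by 294 bp, and a pair of sites 647 and 662 bp upstream held the same values with 1 entry at 0 h. Sites just inside the gene, up to 320 bp, held 4, 2, 5 and 7 with 2 at 0 h. Ubr3, a ubiquitin ligase, held 1, 1, 7 and 4, and Sp8, a zinc finger transcription factor, 4, 3, 8 and 3. Cdh2, the neural cadherin, held 2, 2, 7 and 1. With 1 library per time, none of these differences can be set against replicate error.

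Most genes with a missing site also had a site covered at 0 h: 758 of 929 did, and 171 (18.4%) did not. All listed sites were missing ones in 81 genes, 34 of which had 2 or more sites. The largest of these were Slc4a7 with 9 sites, Susd6 (3, 2, 2 and 1 entries) and Uck2, a uridine-cytidine kinase (4, 3, 3 and 5), with 7 each, and Zfyve28 (1, 1, 1 and 2) with 6. Gcc1, a Golgi coiled-coil protein, held 3 at every later time at 5 sites. Marchf7, a ubiquitin ligase (4, 4, 3 and 3), Pdp1, which reactivates pyruvate dehydrogenase (3, 3, 4 and 4), and Vav3, a guanine nucleotide exchange factor (4, 4, 4 and 3), also had 5 sites each. Zfyve28 and Pdp1 were within 500 bp of a 0 h-covered site that did not carry their symbol, and the others were separate.

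Counted by number, 6530409C15Rik had the most missing sites, 11 of its 18, at 1, 1, 2 and 3 entries and with no site covered at 0 h. Mapk8 followed with 10 of 23. Several genes had 9. Those named here besides Slc4a7 are Pank2, a mitochondrial pantothenate kinase of coenzyme A synthesis (4, 4, 3 and 3), Acot7, an acyl-CoA thioesterase (3, 2, 3 and 4), Brwd1, a bromodomain protein (1, 3, 5 and 5), Pm20d2 (2, 1, 3 and 3) and Fam241a (2 at each time). Each of these 5 had 1 or 2 sites covered at 0 h, so that most of their listed sites stood outside the 0 h cover. Other genes with 9 had more listed sites, among them Ppp3ca (13 listed, 1 covered at 0 h), Gas1 (17 listed, 2 covered) and Ctnnb1 (17 listed, 3 covered).

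Separate regions lay a median of 89827 bp from the nearest 0 h-covered site, and 157 of the 162 were over 5000 bp away. In 79 of them no other listed site stood within 2000 bp. The farthest was at Kdm6a, an X-linked H3K27 demethylase, with 3, 4, 4 and 4 entries and 1897033 bp to the nearest 0 h-covered site. Nkain2, a protein that interacts with the sodium-potassium ATPase, followed with 4, 3, 5 and 5, then Gm9947 with 1, 1, 2 and 2, and Plcb4, a phospholipase C, with 1, 1, 4 and 5. Such distances depend on how densely a chromosome is listed, since only listed sites can be covered.

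In 6 regions sites of neighbouring genes were missing together. Atg4b, a protease of autophagosome formation, and Thap4 shared 12 sites with 3, 2, 3 and 4 entries. The poly(ADP-ribose) polymerase gene Parp12 and 4930599N23Rik shared 5 with 3, 2, 3 and 2, and Galnt16 and Gm26777 shared 3 with 1, 1, 2 and 1. Siah1a, a ubiquitin ligase, and Gm10638 had 1 site each, with 2, 1, 6 and 2 and with 3, 2, 6 and 2. Arhgef11 and Gm24109 shared 2, 2, 3 and 2, and Atp5j and Gabpa are described above. The values of the 2 genes of a pair were the same in all but the Siah1a region, and without the reads they cannot be assigned to 1 gene or the other.

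The sites lay a median of 363.5 bp inside the gene from its outermost annotated 5′ end (quartiles 147 and 787 bp). The median was 195 bp for sites covered in all 5 libraries and 324 bp for all sites. A site counted as inside can lie before another start of the gene. Raph1 sites 175 to 279 bp inside, for example, lay at bases 114 to 223 of its promoter window, whose start follows base 250. Only 10.7% were upstream of the 5′ end, against 21.7% of sites covered in all 5, and 7.52% were within 50 bp of it, against 17.5%. Sites covered in no library had similar shares, 11.6% and 6.88%, with a median of 563 bp, so these low shares were not particular to the missing sites. Their share was 3.45% of the listed sites in the last 100 bp before the 5′ end and 4.37% in the first 100 bp after it. Inside the gene it was 8.43% at 250 to 500 bp and 8.73% at 500 to 750 bp. Upstream it was 3.72% at 100 to 250 bp, 8.35% at 250 to 500 bp (51 of 611 sites) and 3.49% at 500 to 1000 bp. A missing site must be uncovered at 0 h, and 0 h cover was 69.9% in the last 100 bp before the 5′ end and 36.1% at 500 to 750 bp inside, so part of this course is set by the rule. Among all sites uncovered at 0 h, the share was flatter, at 11.5% in the last 100 bp before the 5′ end, 15.9% at 100 to 250 bp inside, 13.6% at 500 to 750 bp and 16.5% at 250 to 500 bp upstream.

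**Figure D4:**
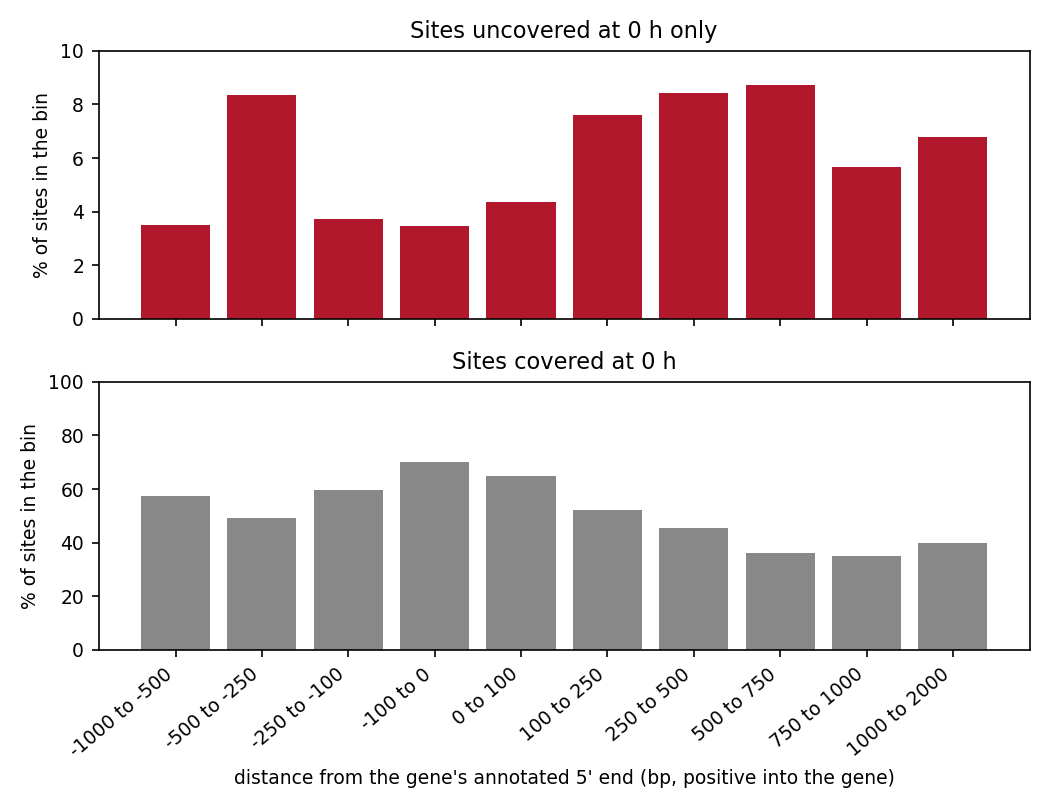
Percentage of listed sites in each bin of distance from the gene's outermost annotated 5′ end (x axis, bp) that were uncovered at 0 h only (top) or covered at 0 h (bottom). The top bars reach 8.73% at 500 to 750 bp and 8.35% at 500 to 250 bp upstream, and stand at 3.45% just before the 5′ end, where the lower bars peak at 69.9%. A site in the top bars must be uncovered at 0 h, so the panels are not independent.

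In the table's own orientation, 1823 of the 2061 (88.5%) overlapped their gene, 231 (11.2%) were marked downstream, 3 upstream and 4 had no gene. Sites covered in all 5 libraries overlapped their gene in 76.0% of cases and all sites in 80%. The site's strand was that of the gene in 1007 of 2057 named sites (49.0%, Wilson 95% interval 46.8 to 51.1%), against 54.1% of sites covered in all 5 and 51.2% of all named sites. Among named sites covered in no library it was 48.9%, almost the share of the missing sites. Upstream of the 5′ end the same strand was found for 56.9% of the missing sites and in the first 1000 bp of the gene for 47.6%. For all sites the shares were 61.6% and 49.4%, and for sites covered in all 5 they were 63.0% and 52.0%. The higher upstream share was thus not particular to the missing sites. The missing sites were thus split about evenly between both strands.

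GC content moved with the pattern. A RefSeq promoter window of 300 bp, 250 before to 50 after a start, was at hand for 434 of the 2061 sites (21.1%), so the values hold for these and a check over all 2061 is void. The window's median GC content was 78.0% (quartiles 75 and 80%), against 70.7% for sites covered in all 5 libraries and 73.3% for all sites in a window. It was 78.3% for sites uncovered at 0 h and 1 h, 79.3% for those covered at 1.5 h and 2 h only, 77.3% for those covered in no library, and 75.3% for the 83 separate sites in a window. Restricted to sites within 250 bp of the 5′ end, the medians were 78.0% for the missing sites and 70.3% for those covered in all 5.

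Of the 434 sites, 347 lay in windows of 75% GC or more and 17 in windows under 70%. They made up 9.35% of listed sites in windows of 75 to 80% GC and 7.01% above that, against 0.719% at 65 to 70%, 0.389% at 60 to 65% and none of 440 under 60%. Among all sites uncovered at 0 h, the shares were 20.2% at 75 to 80% and 8.79% above that, against 4.55% at 65 to 70%, 2.23% at 60 to 65% and none of 46 under 60%. The libraries themselves parted along the same scale. Under 60% GC they covered 89.5%, 89.5%, 89.3%, 90.2% and 89.5% of sites, in order of time from 0 to 2 h. At 75 to 80% GC they covered 53.7%, 68.0%, 60.6%, 78.5% and 77.8%, and from 80% on 20.3%, 34.3%, 24.8%, 51.3% and 51.0%. The libraries thus differed most at GC-rich promoters, and the part of GC content in the choice of these sites was not tested.

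**Figure D5:**
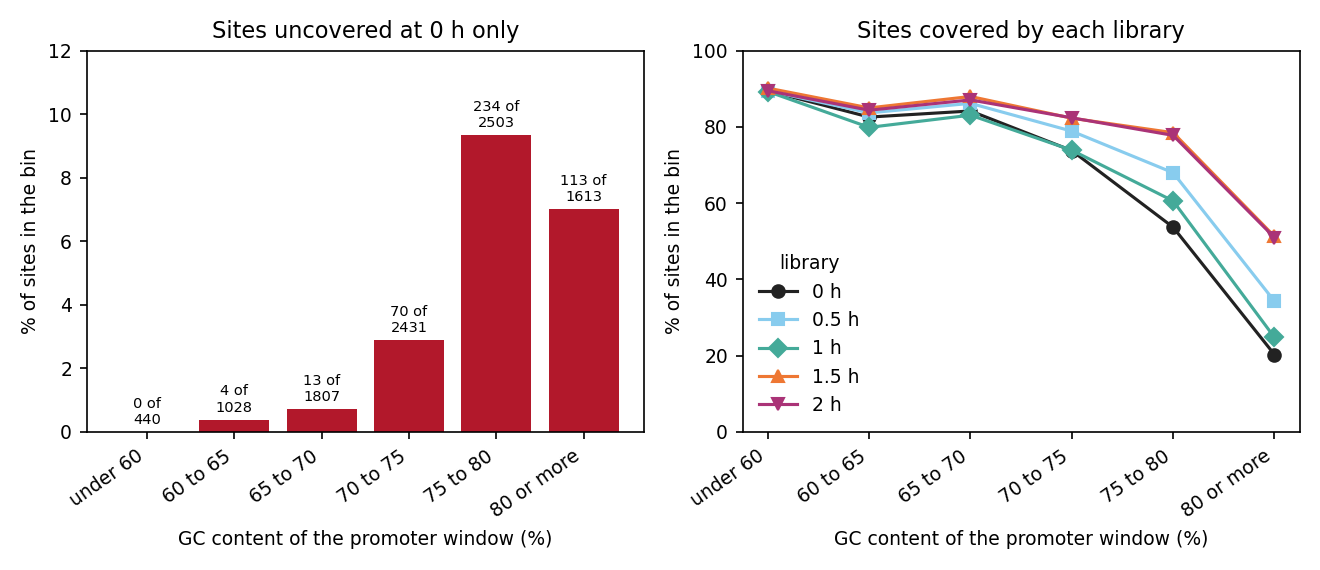
Left, percentage of listed sites in each GC bin of the promoter window (x axis, %) that were uncovered at 0 h only, with counts. Right, percentage of sites covered by each library in the same bins. The left bars reach 9.35% at 75 to 80% GC and the 5 lines on the right, together near 90% under 60% GC, spread from 20.3% at 0 h to 51.3% at 1.5 h in the last bin.

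Short motifs were counted on both strands in the 225 windows with a missing site, in the 3586 windows with a site covered at 0 h, some of which hold both kinds, and in windows of 75% GC or more from each set, 166 and 664 in number. The ETS core CCGGAA was in 20.9% of the first and 29.9% of the second, and at high GC in 20.5% and 22.1%. High GC is a cut and no match: above it the median GC content was 78.3% and 77.3%. The CCAAT box (CCAAT) was in 13.3% and 32.7%, at high GC in 13.9% and 19.9%, and the NRF1 core GCATGCG in 2.67% and 9.01%, at high GC in 1.81% and 7.23%. The GC box GGGCGG, found by the Sp family, was in 90.7% and 84.8%, at high GC in 94.0% and 96.1%. The YY1 core GATGGCG was in 11.1% and 8.42%, at high GC in 12.7% and 6.78%. Over all windows of 75% GC or more these 5 motifs were in 16.8%, 16%, 4.98%, 95.6% and 5.68%, in the same order. The 89 windows with a missing site and no site covered at 0 h, which share no window with the 0 h-covered set, held ETS in 7.87%, CCAAT in 10.1%, NRF1 in 2.25%, the GC box in 86.5% and YY1 in 8.99%. The 63 of them at high GC held these in 7.94%, 14.3%, 1.59%, 92.1% and 11.1%. The ETS core was thus rarer in these than in 0 h-covered windows at high GC too (5 of 63 windows, against 147 of 664). High-GC windows whose sites were covered in no library held it in 11.1% (26 of 235), so a low share was not particular to the 63. They held CCAAT in 11.1%, NRF1 in 2.13%, the GC box in 92.8% and YY1 in 3.4%. A match is a description of these letters in the window and shows no binding. The remaining motifs searched were AP-1 (TGACTCA), CRE (TGACGTC), E-box (CANNTG) and TATA box (TATAAA), in 2.67%, 6.22%, 43.1% and 2.67% of windows with a missing site and 2.26%, 6.69%, 52.4% and 6.25% of those with a site covered at 0 h. At high GC they were in 3.01%, 4.82%, 39.2% and 2.41% of the windows with a missing site and 1.36%, 5.72%, 41.3% and 1.81% of those covered at 0 h, so that the TATA box was no longer the rarer in windows with a missing site and the E-box shares were close.

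How many missing sites a gene had followed how many sites were listed for it: 1.81% of genes with 1 listed site had one, 17.4% of those with 4 to 7 and 40.1% of those with 16 or more. Gene groups are therefore given by the share of their listed sites, which was 6.06% over all named sites. Of 26 groups, 13 lay above that share, with a range from 1.32% to 11.6%. No test was run on them.

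Genes of kinases, phosphatases and growth factor signalling had the highest share, 81 of 699 sites (11.6%) at 30 of 104 genes. Dab2ip, a Ras GTPase activator, held 3, 6, 5 and 5 entries, Wwc2, a Hippo pathway scaffold, 4, 4, 5 and 4, and the ephrin Efnb2 4 at every later time. Lats1, the Hippo kinase, held 6, 2, 4 and 3. Missing sites of the Ras and mTOR branches were at Braf (3, 3, 4 and 3), Rheb (4, 4, 3 and 3), Pik3ca (2, 2, 2 and 3) and Rptor (2, 2, 3 and 3), the last named, a subunit of mTOR complex 1, being separate. Sites with the symbol Fgfr2 lay more than 5000 bp outside the RefSeq gene of that name and are not described.

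Ubiquitin ligases and proteases had 69 of 651 sites (10.6%) at 29 of 138 genes. Rnf145 (4, 4, 5 and 4), Fbxl20 (4 throughout), Rnf139 (4, 4, 3 and 5) and Wwp2 (5, 3, 4 and 4), all ligases or their substrate adaptors, had the highest sums. Small GTPases and their regulators had 67 of 655 (10.2%) at 28 of 132 genes, among them Rasa1, a Ras GTPase activator (4, 5, 4 and 3), Asap2 (4, 2, 4 and 5), Rabep1, an effector of endosomal Rab5 (4, 4, 4 and 3), and Ran, of nuclear transport (4, 4, 4 and 3). Of the genes with a missing site, 25 of 29 and 21 of 28 were of the edge kind, near the share over all such genes (732 of 929).

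The Notch, Wnt, TGF-beta and Hedgehog pathways had 65 of 679 sites (9.57%) at 20 of 92 genes. Rbpj, the DNA-binding partner of Notch, held 4, 4, 5 and 5, and Tle1, a Groucho co-repressor, 5, 3, 4 and 5. The BMP receptor gene Bmpr2 held 3, 3, 4 and 6, and Cdon, a Hedgehog co-receptor, 4, 4, 3 and 3. Ctnnb1, the Wnt effector beta-catenin, had 9 missing sites of 17 at 2, 1, 2 and 2, and Hey1, a Notch target repressor, held 2, 2, 3 and 3 at 2 separate sites.

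Sequence-specific transcription factors had 76 of 990 sites (7.68%) at 36 of 137 genes. After Rest and Gabpa came Rbpj and Foxp4, a forkhead factor (4, 3, 5 and 5, separate). The circadian pair Clock (4, 3, 4 and 4) and Arntl (2, 2, 3 and 3) had 5 missing sites each. AP-1 and immediate early genes had 2 of 91 sites (2.20%): Jund held 2 at every later time and Ier5 3.

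Chromatin regulators were near the share of all sites. Histone and DNA modifying enzymes had 31 of 500 sites (6.20%) at 14 of 69 genes, among them Ezh2, the H3K27 methyltransferase (6, 4, 5 and 5), the acetyltransferase Ep300 (4, 5, 4 and 5) and the H3K36 methyltransferase Nsd2 (4 throughout). Remodellers, readers and chaperones had 45 of 771 (5.84%) at 21 of 97, among them Ino80 (4, 5, 5 and 5), Jade1 (4, 5, 5 and 4), Rsf1 (6, 3, 3 and 6, separate) and the co-repressor Trim28 (5, 3, 6 and 4).

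RNA processing and decay had 44 of 563 sites (7.82%) at 10 of 100 genes, all of the edge kind, as were 732 of all 929 genes. Hnrnpk held 3, 4, 5 and 5, Wtap, a subunit of the m6A methyltransferase complex, 4 throughout, and Ptbp2, a neuronal splicing regulator, 5, 4, 3 and 3. The splicing factors Srsf4 and Srsf6 had 8 missing sites each. Lipid and membrane metabolism had 23 of 312 (7.37%) at 15 of 75 genes, of which 6 were separate (161 of 929 over all genes), led by the flippase gene Atp8b2 (4, 4, 7 and 5).

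The lowest shares were in cytosolic ribosomal protein genes, with 1 of 76 sites (1.32%, Rps3a1 at 4, 3, 3 and 3), the list kept for histone genes, with 2 of 102 (1.96%), proneural and neuronal genes, with 9 of 424 (2.12%), the AP-1 and immediate early genes above, vesicle traffic, with 5 of 216 (2.31%), and numbered zinc finger genes, with 16 of 556 (2.88%). The 2 sites of the histone list were at H3f3a and at H2-K1, a histocompatibility gene and no histone. Its share is therefore not one of histone genes alone. The neuronal genes were Nova1, a splicing regulator (3, 4, 3 and 3), Sema4d, a semaphorin (1, 1, 6 and 4), Unc5b, a netrin receptor (3, 2, 3 and 3), and Mapt, the microtubule protein tau (2, 1, 1 and 2). Nuclear genes of mitochondrial proteins had 6 of 139 (4.32%) at 5 of 61 genes: besides Atp5j these were Atp5o, an ATP synthase subunit (3 throughout), Lonp1, the matrix protease (3, 4, 3 and 2), Vdac3, an outer membrane channel (3 throughout), and Micu2, a regulator of calcium uptake (2, 3, 2 and 2). Cell cycle and replication genes had 8 of 164 (4.88%) at Nek6, Nek7 (3, 3, 3 and 2) and Ccne2, cyclin E2 (7, 5, 4 and 3).

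Markers of the cell type were thinly listed. Of 10 neural progenitor markers 6 had a site. In the 2 h library 3 of these were covered, against 2 in the 0 h library, and Cdh2 and Hes1 carried missing sites. Hes1, a Notch effector, held 1 entry at each later time at a site 915 bp upstream, 55 bp from a site with 1 entry in all 5 libraries. None of 3 listed neuronal markers of 6 and of 4 listed oligodendrocyte lineage markers of 5 carried a missing site. The 0 h library held entries over 2 of the 3 neuronal and 1 of the 4 oligodendrocyte lineage markers, and the 2 h library over equal numbers. Astrocyte, mesenchymal and microglial or blood markers had no listed site. The label of the cells could therefore be checked on few genes only.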

How the data were processed

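ATAC-seq values of C17.2 cells at 0, 0.5, 1, 1.5 and 2 h after induction were taken from 1 deposited table of the series. Per the submitters' processing notes, Bowtie2, MACS2, deepTools and the build GRCm38 (mm10) were used, while no source used here gives versions, peak thresholds or the handling of duplicates and of the transposase offset. The columns bear the names of BED files, per the file headers, and hold whole numbers deposited by the authors, read as entries over a site. They are not read counts, depth is unknown, and no count model or scaling was used.

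Sites with 0 entries at 0 h and 1 or more at each later time were taken, merged at 500 bp and classed by the nearest site covered at 0 h. Gene positions and promoter windows are RefSeq (GRCm38.p6), and 710 of 929 genes had a promoter entry by symbol (76.4%). Distances to a 5′ end were taken from the outermost annotated end of the gene. Sites over 5000 bp outside their matched gene got no distance. Ratios used log2(entries + 1). Distances and merging were tested on simulated data. Python 3.11.15, pandas 2.3.3, numpy 2.4.6 and scipy 1.17.1 were used.

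The sites, gene lists, named genes and tests were chosen with earlier results of these data known. Genes named are the 12 regions with the highest lowest later value, the 8 genes with most missing sites (some tied genes fell outside), the 8 with most sites all missing, the 6 regions with the largest later range, the 4 farthest from 0 h cover, shared regions, and up to the first 4 of a list by summed later entries. Lats1, Braf, Rheb, Pik3ca, Rptor, Ctnnb1, Hey1, Clock, Arntl, Srsf4, Srsf6, Micu2, Gas1 and Ppp3ca were added after their values were seen. The symbol Galnt2l, attached to sites over a long stretch, is not reported, and some genes that the rule names are not reported here. Alternatives were stricter entry minimums, leaving each later library out of the rule, other distances, 1 site per region, and another pseudocount.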

Additional observations from a re-analysis of the deposited data

How the results depend on the processing

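No paired analysis was possible because each time has 1 library and no result comes from a test. Of 34 alternatives over 16 results, 23 stayed within 1.5 times the reported count or within the interval of the reported share. Among the 23 are the runs with a pseudocount of 0.5. With whole numbers that pseudocount can change no 2-fold call, so their unchanged shares say nothing on how stable the results are. The number of sites was 1287 with at least 2 entries at each later time, 523 with at least 3, and 3811 without the 1 h library in the rule. Leaving out the 0.5, 1.5 or 2 h library gave 2218, 2071 and 2092. The share near a 0 h-covered site was 56.9% within 200 bp and 82.4% within 1000 bp. With 1 site per region, 90.1% held 2 or more entries at 1.5 h and 85.9% at 2 h, and 1.37% had a 1 h value at least 2-fold above that of 0.5 h. A gene called by its site with the highest mean gave 2.39% of genes in place of 11.6%. The last 2 alternatives were chosen after seeing the data: in windows of 75% GC or more the share near 0 h cover was 80.4%, and windows under 70% GC held 17 of the sites. Unknown depth and 1 library per time limit every comparison, and the values cannot show whether an uncovered site was less open or below a calling threshold.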
